A study of Mus musculus with 11 samples.

Results

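The genes described here are 10 components of insulin and insulin-like growth factor (IGF) signalling, taken as a list by gene symbol from the 22196 genes to which the transcripts of the series were assigned. They are the ligand Igf1, the binding protein Igfbp4, the receptors Insr and Igf1r, the receptor substrates Irs1 and Irs2, the adaptor Grb10, the kinases Akt1 and Akt2, and the glucose transporter Slc2a4. All 10 were among the 12716 genes that passed the filter on low counts and were tested. RNA was sequenced from the inguinal mammary gland of 11 mice, 6 labelled knockout (Tsc1-fl/fl; Adipoq-Cre-Tg/+) and 5 labelled wild type (Tsc1-fl/fl; Adipoq-Cre-+/+). Mice of both groups thus carried the same loxP-flanked Tsc1 alleles, and the groups differed by the Cre transgene, which the adiponectin promoter drives in adipocytes. All glands were collected 16 days after delivery, with PND16.5 as the label for the postnatal day, from mice with free access to milk and normal chow. The question here is whether the gland's insulin and IGF signalling transcripts differ between mice with and without the adipocyte deletion.

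TSC1 is part of the complex that restrains the kinase complex mTORC1. Insulin and IGF-1 bind related receptor tyrosine kinases, which recruit the substrates IRS1 and IRS2, activate phosphoinositide 3-kinase and, through it, AKT. AKT releases mTORC1 from the TSC complex, moves the glucose transporter GLUT4 to the surface of fat and muscle cells, and keeps FOXO transcription factors out of the nucleus. Active mTORC1 feeds back on the start of the pathway, partly by phosphorylation of IRS proteins and of GRB10 and partly through transcription, so that the transcript levels reported here cover only part of that feedback. In the lactating gland, IGF and insulin signals are known to act on the survival and the milk synthesis of the secretory epithelium.

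Alternative exons divide the transcripts of a ligand and of a receptor in this set, and their sequences are shown because the shares of transcripts with these exons are given below. The 36-base exon of Insr distinguishes the B form of the insulin receptor, which holds it, from the A form, which binds IGF-2 with higher affinity. It lies at chr8:3181702-3181737 on the minus strand and is coding (GRCm38, GENCODE M21). The 52-base exon of Igf1, at chr10:87915298-87915349 on the plus strand, sets the carboxy-terminal extension of the IGF-1 precursor: transcripts with it encode the Eb form and transcripts without it the Ea form. The exon is in capitals and 20 bases of each neighbouring exon in lower case, read 5′ to 3′ along the transcript.
Insr 36-base exon: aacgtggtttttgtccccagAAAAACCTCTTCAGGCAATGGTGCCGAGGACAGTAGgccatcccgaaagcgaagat
Igf1 52-base exon: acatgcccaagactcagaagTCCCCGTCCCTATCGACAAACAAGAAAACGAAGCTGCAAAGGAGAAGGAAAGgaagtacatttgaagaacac

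Promoters were given by RefSeq (GRCm38.p6) for 8 of the 10 genes, all except Insr and Slc2a4. Among 8 short motifs searched on both strands in the 250 bases before each start, 2 were found together in Irs1 and Irs2 and in no other member: CACGTG, the core of the E-box that basic helix-loop-helix factors such as TFE3 bind, and TGTTTTG, a form of the insulin response element that FOXO factors bind. They were picked out after the search. CACGTG was present in 6.02% and TGTTTTG in 5.56% of all 32851 promoters, and both together in 97 promoters, 0.295%. The 130 bases before the start of Irs1 (chr1:82291440-82291569, minus strand) and of Irs2 (chr8:11008930-11009059, minus strand) are shown with both motifs in capitals.
Irs1 promoter: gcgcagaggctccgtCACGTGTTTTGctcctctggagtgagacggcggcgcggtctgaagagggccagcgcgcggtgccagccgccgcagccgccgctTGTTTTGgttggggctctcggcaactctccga
Irs2 promoter: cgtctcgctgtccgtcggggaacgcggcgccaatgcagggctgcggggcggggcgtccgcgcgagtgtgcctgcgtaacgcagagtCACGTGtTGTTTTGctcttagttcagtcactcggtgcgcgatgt
In Irs1 the E-box core began 115 bases before the start and overlapped a TGTTTTG that began 111 bases before it, and another TGTTTTG began 32 bases before the start. In Irs2 they began 44 and 37 bases before the start, with 1 base between them. These starts are those of RefSeq. The GENCODE genes, on the minus strand, start at 82291416 for Irs1 and at 11008458 for Irs2, so that the matches lie farther before those starts. These matches describe the sequence and say nothing about binding in the gland.

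Libraries held 25817975 to 37894237 estimated reads. Tsc1 had 10.1 CPM ± 1.33 (SD, n = 6) for knockout and 10.7 CPM ± 1.11 (SD, n = 5) for wild type (CPM, TMM-scaled counts on a shared library total), with overlapping ranges, and the counts do not separate its floxed exons, so that Tsc1 does not check the labels. Markers of secretory epithelium summed to between 318807 and 447414 CPM in knockout and between 399979 and 558439 CPM in wild-type glands, so that the defining cells of the labelled tissue were present. The 10 adipocyte markers were detected in every library and summed to 1454 to 1941 CPM for knockout and 1047 to 1483 CPM for wild type. Skeletal muscle RNA set the library knockout 1 apart: its 7 markers summed to 2229 CPM, against 2.56 to 173 CPM in the other knockout and 1.54 to 187 CPM in the wild-type libraries, with Tnnt3 and Myh4 at 0 in some. In a whole gland, fewer cells of a type and less RNA per cell cannot be told apart.

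None of the 10 genes differed between genotypes past an adjusted p of 0.05 (edgeR quasi-likelihood test, Benjamini-Hochberg over all genes tested), where 0.055% of all genes did, 7 of 12716. None had an unadjusted p under 0.05 either, against 12.4% of all genes, and DESeq2 called 0 of the 10 at an adjusted p of 0.05, against 1.17% of the genes to which it gave one. The groups overlapped in CPM for each of the 10, while they were fully apart for 1.32% of all genes. Estimated log2 fold changes ran from -0.43 for Irs2 to 0.27 for Insr, 6 above 0 and 4 below, with a median of 0.02 beside -0.01 over all genes tested. Fitted on log2 TPM with limma, where the median of all genes moved to 0.17, Grb10, Akt1 and Igfbp4 lay above 0, at 0.26, 0.19 and 0.06. Intervals differed widely in width: the 95% interval of Akt2 spanned 0.912-fold to 1.16-fold, that of Irs2 0.468-fold to 1.180-fold.

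**Figure D1:**
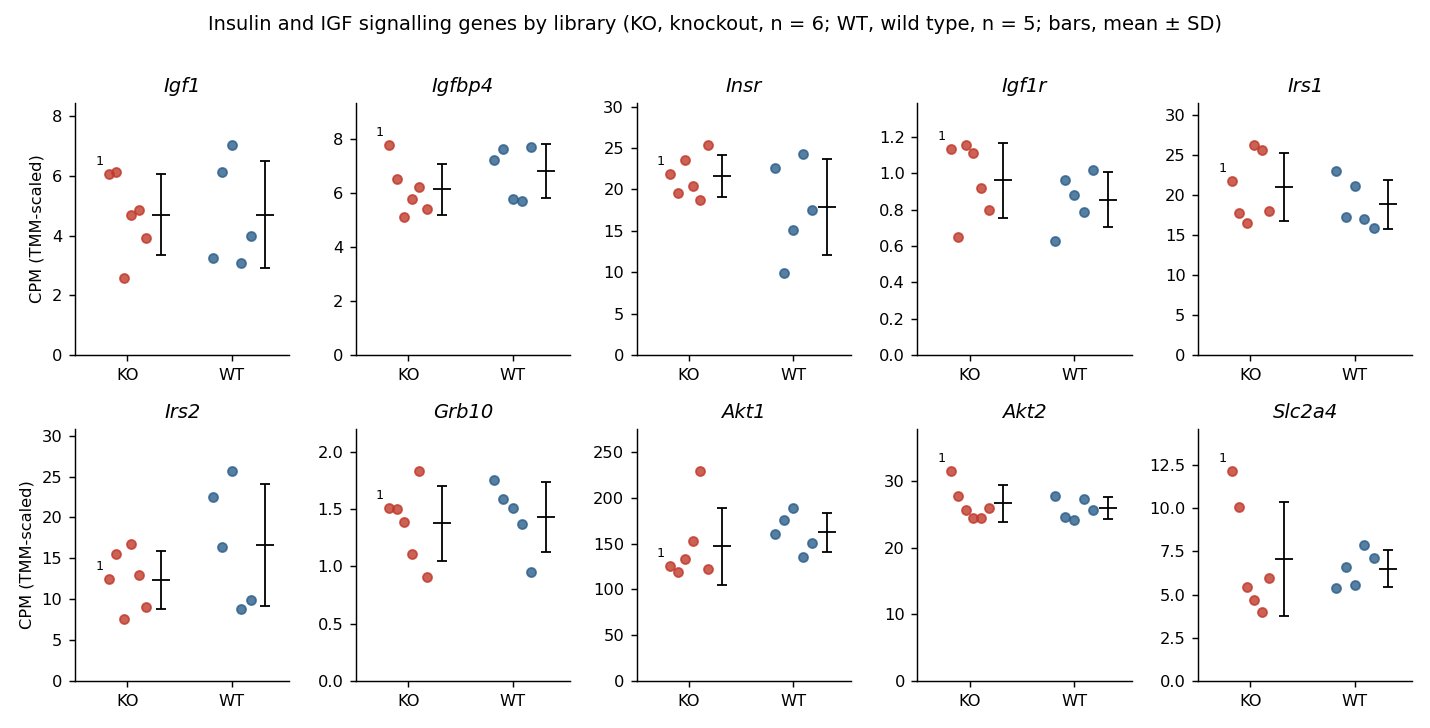
CPM (vertical axes, TMM-scaled, each from 0) of the 10 genes in the 6 knockout (red) and 5 wild-type (blue) libraries, with the mean and SD of each group as a black bar; the point marked 1 is knockout 1. The groups overlap for every gene, and knockout 1 is the highest library for Akt2, at 31.5 CPM, and for Slc2a4, at 12.2 CPM.

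**Figure D2:**
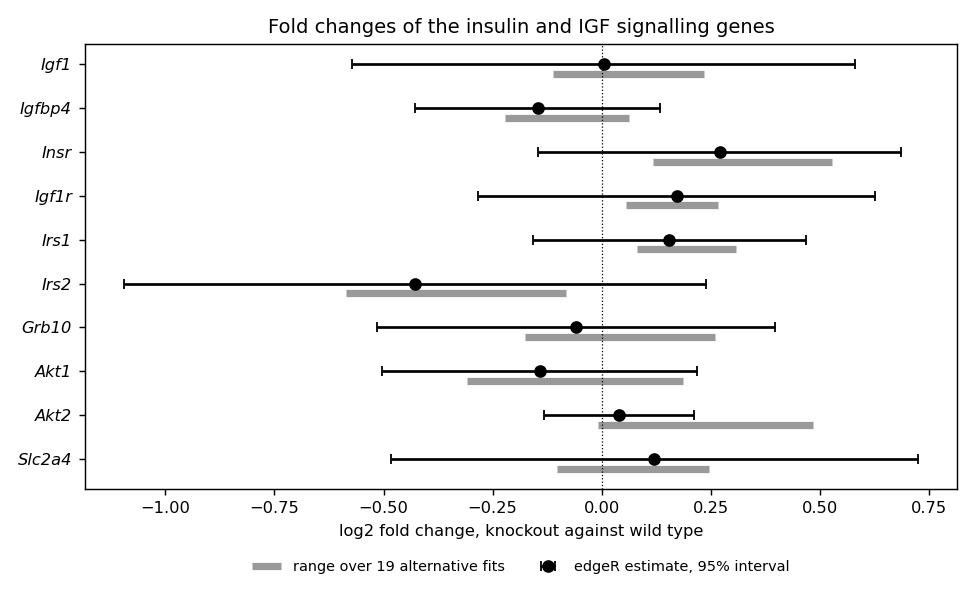
Log2 fold change of each gene, knockout against wild type (horizontal axis), as the edgeR estimate with its 95% interval (black) and the range of the estimate over 19 alternative fits (grey). Every interval includes 0; the narrowest belongs to Akt2 and the widest to Irs2.

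Per length, Akt1 was the most abundant of the set and Igf1r the least. Summed TPM (transcript abundance per length, on the same total in every library) averaged 55.3 ± 13.2 (SD, n = 11) for Akt1, 17.8 ± 5.26 for Akt2, 10.3 ± 3.73 for Igf1 and 5.16 ± 1.36 for Igfbp4. Lower on that scale were Slc2a4 with 3.34 ± 3.56, Insr with 2.72 ± 0.897, Irs1 with 1.93 ± 0.456, Irs2 with 1.29 ± 0.417, Grb10 with 0.583 ± 0.342 and Igf1r with 0.083 ± 0.023. Akt1 exceeded Akt2, Igf1 exceeded Igfbp4, and Grb10 exceeded Igf1r in all 11 libraries, and 5 other neighbours in this order kept it in 10 of 11. Slc2a4 and Insr were not ordered: Slc2a4 was above Insr in 5 of 11 libraries. Summed TPM includes short partial transcripts, and the order depends on them. On the longest listed transcript alone, the mean TPM was 1.93 for Irs1, 1.79 for Slc2a4 and 1.74 for Insr, with Irs1 above Insr.

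Igf1 (chromosome 10, 87858265 to 87937042), the ligand, had nearly the same mean in both genotypes. Its levels in knockout libraries 1 to 6 were 6.06, 6.14, 2.58, 4.69, 4.85 and 3.93 CPM, and in wild-type libraries 1 to 5 they were 3.26, 6.14, 7.04, 3.07 and 4.00 CPM. Both genotypes thus ranged from about 3 CPM or less to above 6 CPM. The log2 fold change was 0.00 ± 0.26 (SE; adjusted p = 0.996, edgeR), with a 95% interval from 0.673-fold to 1.496-fold, and the estimate fell below 0 without any 1 of knockout 1, knockout 2, wild type 1, wild type 4 and wild type 5. Igfbp4 (chromosome 11, 99041244 to 99054392) encodes a secreted protein that binds IGFs and limits their access to the receptor. It had 7.79, 6.51, 5.12, 5.77, 6.24 and 5.43 CPM in knockout and 7.25, 7.64, 5.78, 5.71 and 7.72 CPM in wild-type libraries. Knockout 1 was the highest of all 11 and the other 5 knockout libraries lay below the 3 highest wild-type ones, with a log2 fold change of -0.15 ± 0.13 (SE; adjusted p = 0.671, edgeR), with -0.22 without knockout 1 and -0.10 without wild type 5.

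Insr (chromosome 8, 3122061 to 3279617), the insulin receptor, had the highest estimated fold change of the set. Its levels were 21.9, 19.6, 23.5, 20.4, 18.7 and 25.4 CPM in knockout and 22.6, 9.90, 15.1, 24.3 and 17.5 CPM in wild-type libraries. Knockout libraries were close together, and 3 of 5 wild-type libraries lay below all of them. The log2 fold change of 0.27 ± 0.19 (SE; adjusted p = 0.588, edgeR) was 0.12 without wild type 2 and 0.41 without wild type 4. With limma on log2 TPM, where the median of all genes moved to 0.17, it was 0.53. Igf1r (chromosome 7, 67952827 to 68233668), the IGF-1 receptor, was counted 18 to 51 times per library. It had 1.13, 0.648, 1.16, 1.11, 0.918 and 0.797 CPM in knockout and 0.630, 0.961, 0.880, 0.790 and 1.02 CPM in wild-type libraries, and its log2 fold change was 0.17 ± 0.21 (SE; adjusted p = 0.773, edgeR). The estimate was 0.08 without wild type 1 and 0.27 without knockout 2, and its 95% interval ran from 0.822-fold to 1.54-fold.

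The ratio of the receptors within a library does not depend on library scaling. Insr exceeded Igf1r in every library, by between 12.7-fold and 50.8-fold in summed TPM, and by 33.9-fold on average. On the log2 scale the ratio was 5.11 ± 0.35 (SD, n = 6) for knockout and 4.84 ± 0.80 (SD, n = 5) for wild type (exact permutation test, two-sided, p = 0.498, and 0.498 after adjustment over 3 ratios). Wild type 2 had the lowest ratio, 3.67, and wild type 1 the highest, 5.67. Without wild type 2 the difference between genotypes turned from 0.27 to -0.02. Summed TPM includes the short transcript Insr-203 described next. On the longest listed transcript of each gene, the mean log2 ratio was 4.43 for knockout and 4.27 for wild type.

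Of the insulin receptor TPM, 34.5% on average was assigned to Insr-203, the listed transcript with the 36-base exon. It is partial, with 672 bases against 4119 for Insr-201, which lacks the exon, and no full-length transcript with the exon is listed. Reads from the rest of a B-form molecule could be assigned to Insr-201, so that this share may not be the share of the B form. The share of Insr-203 was 34.0%, 33.4%, 38.2%, 31.8%, 41.2% and 38.1% in knockout and 32.8%, 21.8%, 38.6%, 36.5% and 33.3% in wild-type libraries. In 10 libraries it lay between 31.8% and 41.2%, and wild type 2 was lower. The share of Insr-201 was 62.8% ± 5.03 (SD, n = 6) for knockout and 67.4% ± 6.50 (SD, n = 5) for wild type (exact permutation test, two-sided, p = 0.229, adjusted over 7 genes p = 0.535). That difference of -4.59 percentage points was -0.787 in estimated counts and -1.88 without wild type 2. Insr-203 rests on 6.04 to 49.2 estimated reads per library, so that the share carries a counting error of its own in each.

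Igf1 transcripts divided by the 52-base exon showed the Ea form ahead of the Eb form on average. Transcripts with the exon (Igf1-203 and Igf1-206) held 33.7%, 36.5%, 37.2%, 36.9%, 28.7% and 40.2% of the Igf1 TPM in knockout libraries. In wild-type libraries they held 48.6%, 55.2%, 28.8%, 36.4% and 19.7%. The means were 35.5% ± 3.91 (SD, n = 6) and 37.7% ± 14.4 (SD, n = 5), and the wild-type libraries spread over a wider range on both sides of the knockout ones. The form without the exon exceeded the form with it in every library but wild type 2. All Igf1 transcripts together were counted 78 to 273 times per library, and Igf1-206 averaged 10.2 estimated reads with a minimum of 0. The shares thus carry a counting error in each library. Transcripts with the longer of the alternative first coding exons, of 63 bases, held 73.9% ± 5.74 (SD, n = 6) for knockout and 72.1% ± 5.47 (SD, n = 5) for wild type. These form shares were chosen after the transcripts were listed and were not tested. The leading single transcript, Igf1-207, held 45.3% ± 7.15 (SD, n = 6) for knockout and 41.8% ± 11.7 (SD, n = 5) for wild type (exact permutation test, two-sided, p = 0.593, adjusted over 7 genes p = 0.801), and the difference was -1.49 percentage points without wild type 2.

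Irs1 (chromosome 1, 82233101 to 82291416) and Irs2 (chromosome 8, 10984681 to 11008458) encode the main docking proteins of both receptors. Irs1 had 21.8, 17.8, 16.52, 26.3, 25.7 and 17.98 CPM in knockout and 23.0, 17.3, 21.2, 17.0 and 15.9 CPM in wild-type libraries, and its log2 fold change was 0.15 ± 0.14 (SE; adjusted p = 0.692, edgeR), with 0.08 without knockout 4 and 0.24 without wild type 1. Irs2 had 12.46, 15.6, 7.63, 16.7, 12.998 and 8.99 CPM in knockout and 22.5, 16.4, 25.7, 8.84 and 9.86 CPM in wild-type libraries. Wild type 1 and wild type 3 stood above every knockout library, while wild type 4 and wild type 5 were among the lowest of all. The log2 fold change of Irs2 was -0.43 ± 0.30 (SE; adjusted p = 0.592, edgeR), and -0.22 without wild type 3. It was -0.08 with limma on log2 TPM and -0.27 with the replicate number as a block.

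The substrates also differed in balance from library to library. The log2 ratio of Irs1 to Irs2 in summed TPM was 0.87, 0.25, 1.17, 0.70, 1.03 and 1.06 in knockout and 0.09, 0.14, -0.23, 1.00 and 0.75 in wild-type libraries. Irs1 was above Irs2 per length in 10 of 11 libraries, with wild type 3 as the exception, and 3 wild-type libraries had a lower ratio than any knockout library. The difference of 0.50 between the means did not pass the test (exact permutation test, two-sided, p = 0.0779, adjusted over 3 ratios p = 0.234). Over the 11 libraries, log2 CPM of Irs1 and Irs2 had a Pearson r of 0.56, given as a description of libraries that share their scaling.

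Grb10 (chromosome 11, 11930508 to 12038683) encodes an adaptor that binds the activated receptors and dampens their signal, and whose protein mTORC1 stabilizes. It was counted 27 to 68 times per library and had 1.51, 1.501, 1.39, 1.11, 1.84 and 0.910 CPM in knockout and 1.75, 1.59, 1.51, 1.37 and 0.948 CPM in wild-type libraries. Both groups held nearly the same range, with a log2 fold change of -0.06 ± 0.21 (SE; adjusted p = 0.935, edgeR) that was above 0 without wild type 1 or knockout 6. Its full-length transcript Grb10-201 held between 12.4% and 100% of the gene's TPM. The remainder was assigned mainly to short or rare transcripts, of which Grb10-207 (254 bases) and Grb10-209 (348 bases) had at most 2.74 and 9.14 estimated reads in a library.

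Akt1 (chromosome 12, 112653821 to 112674884) and Akt2 (chromosome 7, 27591552 to 27640826) encode AKT kinases, of which AKT2 is the form most tied to glucose uptake in fat and muscle. Akt1 had 125, 119, 134, 152, 230 and 122 CPM in knockout and 160, 176, 189, 135 and 150 CPM in wild-type libraries. Knockout 5 was the highest of all 11 libraries, and 4 of the other 5 knockout libraries lay below the whole wild-type range. The log2 fold change was -0.14 ± 0.17 (SE; adjusted p = 0.761, edgeR), with -0.31 without knockout 5 and -0.08 without wild type 3. Akt2 had 31.5, 27.7, 25.6, 24.4, 24.4 and 26.0 CPM in knockout and 27.8, 24.6, 24.1, 27.3 and 25.6 CPM in wild-type libraries. It varied least of the set, with a log2 fold change of 0.04 ± 0.08 (SE; adjusted p = 0.870, edgeR) that was -0.01 without knockout 1.

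Slc2a4 (chromosome 11, 69942539 to 69948188) encodes GLUT4, the glucose transporter that insulin brings to the surface of adipocytes and muscle fibres. Its levels were 12.2, 10.1, 5.42, 4.69, 3.97 and 5.97 CPM in knockout and 5.36, 6.60, 5.53, 7.90 and 7.12 CPM in wild-type libraries. Knockout 1 and knockout 2 were the highest of all, and knockout 4 and knockout 5 the lowest. The log2 fold change was 0.12 ± 0.28 (SE; adjusted p = 0.891, edgeR), -0.10 without knockout 1 and -0.0016 without knockout 2.

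Akt2, and more loosely Slc2a4, moved with skeletal muscle RNA across the libraries. Ordered by the summed muscle markers, the 4 libraries with more than 100 CPM of them (knockout 1, wild type 1, knockout 2 and wild type 4) were also the 4 with the most Akt2. Pearson r between log2 CPM of Akt2 and the log2 muscle sum was 0.96 over the 11 libraries and 0.95 without knockout 1, with Spearman rho of 0.955 and 0.939. Wild type 1, with 187 CPM of the muscle markers, had the lowest Slc2a4 of the wild-type libraries, at 5.36 CPM. For Slc2a4 the r was 0.80, and 0.65 without knockout 1, with rho of 0.627 and 0.503. These are descriptions of libraries that share their scaling and carry no p. The part of muscle RNA in the fold changes was not tested.

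**Figure D3:**
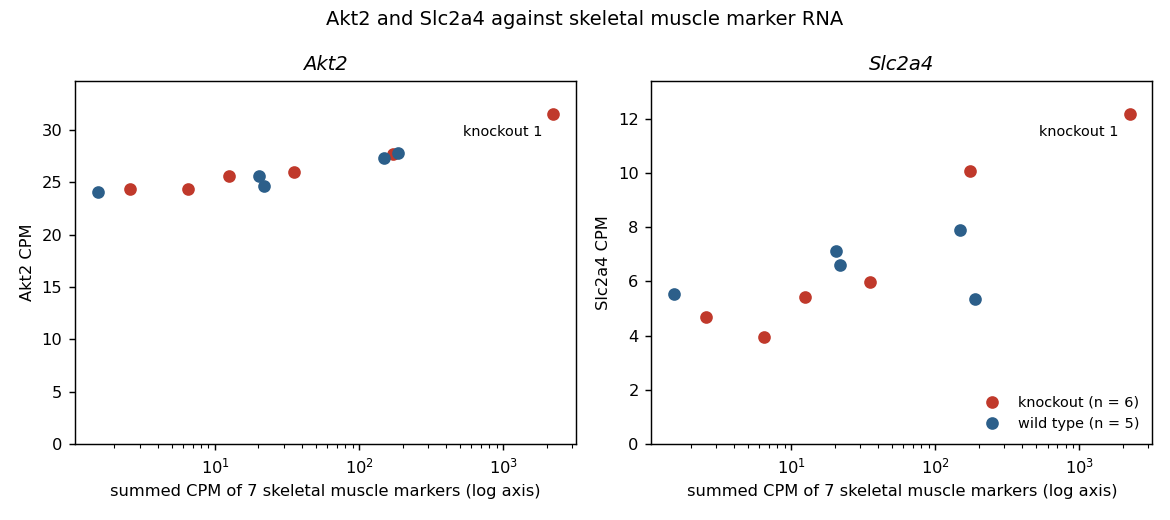
CPM of Akt2 (left) and Slc2a4 (right) against the summed CPM of 7 skeletal muscle markers (log axis) in 6 knockout (red) and 5 wild-type (blue) libraries. Akt2 goes from 24.1 CPM in the library with the least muscle RNA to 31.5 CPM in knockout 1; Slc2a4 shows a looser relation.

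Within a library, Akt1 exceeded Akt2 by between 2.17-fold and 5.50-fold in summed TPM. The log2 ratio was 1.51 ± 0.29 (SD, n = 6) for knockout and 1.83 ± 0.49 (SD, n = 5) for wild type (exact permutation test, two-sided, p = 0.229, adjusted over 3 ratios p = 0.344). The difference of -0.31 was -0.15 without wild type 3 and -0.48 without wild type 4. This ratio and the summed TPM of Akt2 and Slc2a4 include short partial transcripts, whose TPM rests on few reads. On the longest listed transcript of each gene the log2 ratio of Akt1 to Akt2 was larger, on average 2.37 for knockout and 2.58 for wild type. Of the summed Akt2 TPM, the full-length Akt2-205 held 42.4% ± 8.31 (SD, n = 6) for knockout and 49.6% ± 2.51 (SD, n = 5) for wild type (exact permutation test, two-sided, p = 0.0823, adjusted over 7 genes p = 0.530). Most of the rest fell to Akt2-209 and Akt2-210, of 201 and 254 bases, with on average 13.6 and 13.03 estimated reads per library beside 805 on Akt2-205. On log2 TPM, where limma was run as an alternative and all genes shifted by a median of 0.17, Akt2 stood at 0.49. In Slc2a4, the 156-base Slc2a4-206 took up to 76.5% of the gene's TPM on at most 3.00 estimated reads. Slc2a4-201 held 79.5% ± 28.7 (SD, n = 6) for knockout and 69.3% ± 33.1 (SD, n = 5) for wild type (exact permutation test, two-sided, adjusted over 7 genes p = 0.801).

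The leading transcripts of the other 3 genes that could be tested did not pass the threshold either. Akt1-201 held 75.7% ± 5.75 (SD, n = 6) of the Akt1 TPM for knockout and 84.0% ± 11.3 (SD, n = 5) for wild type (exact permutation test, two-sided, p = 0.152, adjusted over 7 genes p = 0.530). Igfbp4-201 held 92.3% ± 8.52 (SD, n = 6) and 90.3% ± 6.94 (SD, n = 5), and Grb10-201 57.9% ± 33.5 (SD, n = 6) and 69.0% ± 40.1 (SD, n = 5) (exact permutation tests, adjusted over 7 genes p = 0.801 for both). The direction for Grb10-201 turned with the measure: its share was higher in knockout by 16.52 percentage points in estimated counts and by 19.02 over transcripts of at least 400 bases. In estimated counts the knockout share was lower by less than in TPM for Akt1-201 and Akt2-205, at -1.18 and -0.71 percentage points, and Akt2-205 differed by 0.457 over transcripts of at least 400 bases. Slc2a4-201 differed by 0.467 in estimated counts. Single libraries moved these differences in TPM share as well. For Slc2a4-201 the difference of 10.1 percentage points ran from 0.937 without wild type 3 to 21.8 without knockout 2, and for Akt1-201 that of -8.33 was -4.34 without wild type 4. Akt2-205 went from -7.20 to -4.75 without knockout 5. The Igfbp4-201 difference of 1.99 ran from 0.255 without wild type 4 to 4.42 without wild type 5, and the Grb10-201 difference of -11.1 from -25.2 without wild type 1 to -3.33 without wild type 4 or wild type 5. Igf1r, Irs1 and Irs2 each had all of their TPM on a single listed transcript.

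**Figure D4:**
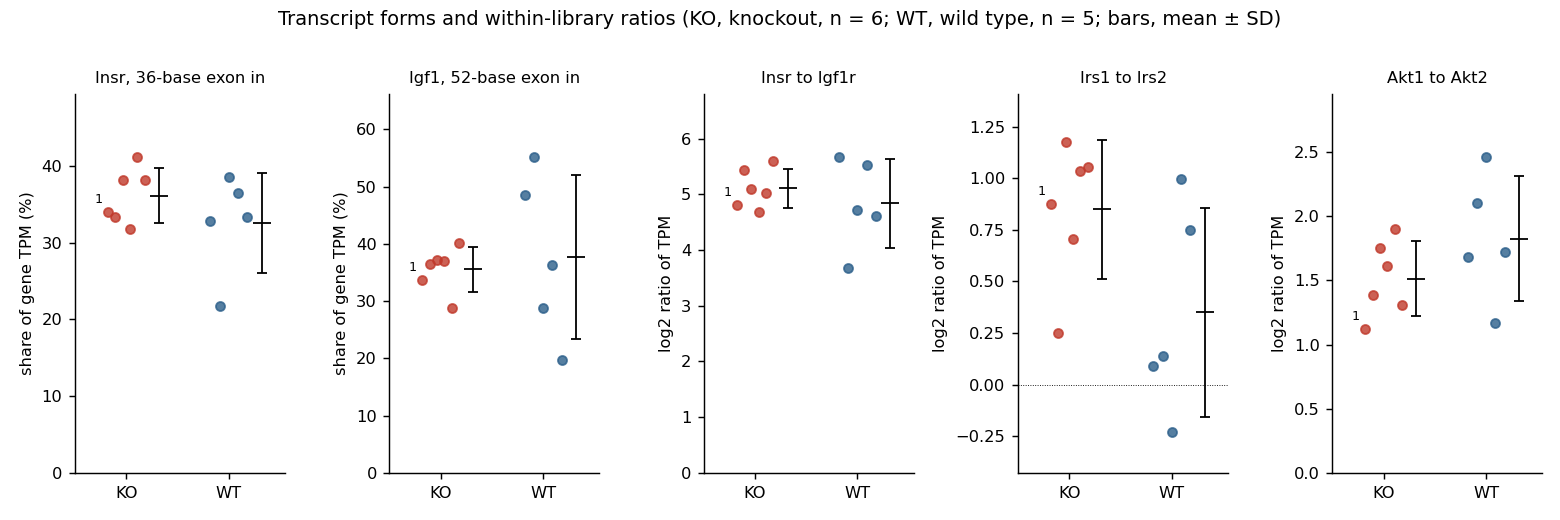
Share of the gene's TPM on transcripts with the 36-base exon of Insr and the 52-base exon of Igf1 (percent, left), and log2 ratio of summed TPM for Insr to Igf1r, Irs1 to Irs2 and Akt1 to Akt2 (right), in 6 knockout (red) and 5 wild-type (blue) libraries, with mean and SD in black and knockout 1 marked 1. The genotypes overlap in all 5 measures, and 3 wild-type libraries have a lower Irs1 to Irs2 ratio than any knockout library.

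The gene most like each member over the 11 libraries, by Pearson r of log2 CPM among all other genes tested, was found for description. Akt2 was most like Ampd1, the AMP deaminase of skeletal muscle, with r = 0.98 (rho = 0.948), and 0.95 without the 2 libraries farthest from the median of Ampd1. The nearest gene was Zfp385a for Igfbp4 (r = 0.97), St6gal1 for Akt1 (0.96), Relb for Slc2a4 (0.96) and Cpd for Insr (0.95). For Insr that likeness fell to 0.70 without the 2 libraries farthest from the median of Cpd, wild type 2 and wild type 3. Zdhhc9 was nearest to Igf1 (0.95), Calcrl to Irs1 (0.93), Asb8 to Grb10 (0.93), Adat1 to Igf1r (0.90) and Stard8 to Irs2 (0.89). Among the members themselves, Akt2 and Slc2a4 were the most alike, with r = 0.80 (rho = 0.582). It was 0.82 without the 2 libraries farthest from the median of Akt2, knockout 1 and wild type 1, but 0.47 without the 2 farthest from that of Slc2a4, knockout 1 and knockout 2. Igf1r had no r above 0.09 with any other member.

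Beyond the 10 genes, 70 others of the pathway were taken in 7 lists by role, of which 61 were tested. None passed an adjusted p of 0.05 in edgeR. In the same fit 9 of 61 had an unadjusted p under 0.05 beside 12.4% of all genes (8 with a fold change above 0 and 1 below). DESeq2 called 2, among them Stc2, where it called 1.17% of the genes to which it gave an adjusted p. The median log2 fold change of the 61 genes was 0.06, with 35 above 0 and 26 below. The 9 not tested for low counts were the ligand genes Igf2, Ins1 and Ins2, the receptor-related Insrr, Igfbp1, the proteases Pappa and Pappa2, the substrate Irs4, and G6pc.

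**Figure D5:**
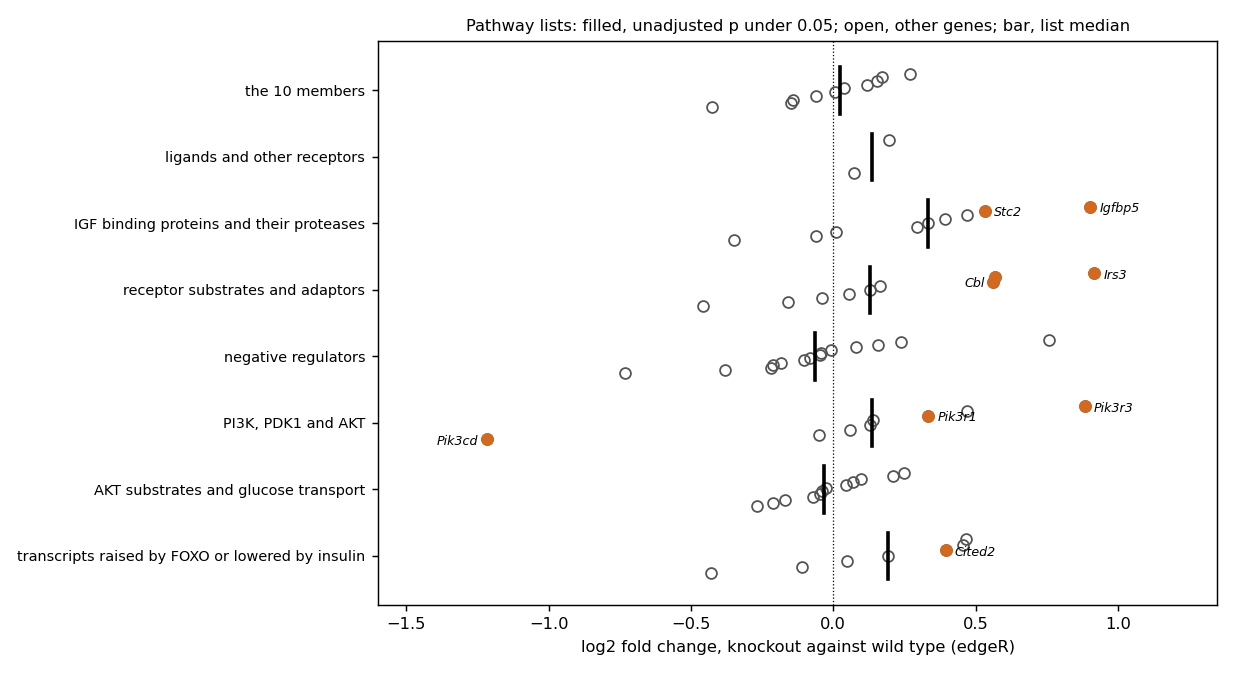
Log2 fold change (horizontal axis, edgeR, knockout against wild type) of the 10 members and of the 61 other tested pathway genes by list, with the list median as a bar; filled points have an unadjusted p under 0.05, and all but 1 of them are named. None of the 10 members and 9 of the other genes are filled, and Pik3cd is the filled gene below 0.

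Among ligands and other receptors, both genes tested had values above 0 and neither passed the test. Igf2r, which clears IGF-2, was the most abundant per length, with a log2 fold change of 0.07 ± 0.08 (SE; adjusted p = 0.752, edgeR), which was 0.03 without wild type 2 or wild type 5 and 0.11 without wild type 1. Lrp1, a scavenger receptor that moves to the surface with GLUT4, had 0.20 ± 0.11 (SE; adjusted p = 0.486, edgeR), and 0.11 without knockout 2.

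In the list of IGF binding proteins and their proteases, 0 of 9 tested genes passed, 7 lay above 0, and the median was 0.33, beside 6146 of 12716 above 0 and a median of -0.01 over all genes tested. Stc2, a secreted inhibitor of the protease that cleaves IGFBP4, had the smallest p of the 61 genes. It had 21.4, 16.7, 20.3, 24.2, 23.1 and 26.1 CPM in knockout and 14.3, 17.2, 13.5, 15.8 and 15.2 CPM in wild-type libraries. In all, 5 of 6 knockout libraries exceeded every wild-type library, and knockout 2 lay below wild type 2. The log2 fold change of 0.53 ± 0.11 (SE) had an adjusted p of 0.137 in edgeR, 0.00291 in DESeq2 and 0.0232 in edgeR without knockout 2. Without any other single library, the adjusted p in edgeR lay between 0.148 (wild type 4) and 0.321 (wild type 3). It was 0.565 in edgeR with the replicate number as a block. Igfbp5, a binding protein known to rise in the involuting gland, had 0.90 ± 0.35 (SE; adjusted p = 0.345, edgeR) on 20 to 246 counts per library. It had 0.64 without knockout 1. Igfbp6 had 0.47 ± 0.27 (SE), and 0.20 without knockout 2, and Igfbp7, the most abundant of the list by summed TPM, 0.01 ± 0.08 (SE). The summed fibroblast markers ranged from 273 to 653 CPM for knockout and from 206 to 461 CPM for wild type, and the summed myoepithelial markers from 484 to 671 CPM and from 386 to 699.8 CPM. In both marker lists 6 of 6 genes lay above 0 in log2 fold change and 0 of 6 passed the threshold, and none was at 0 in any library. Knockout 2 had the highest fibroblast sum and the most Igfbp6, 19.1 CPM. The part of these cells' RNA in the list was not tested.

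Of the 9 receptor substrates and adaptors tested, 0 passed the threshold and 3 had an unadjusted p under 0.05, beside 12.4% of all genes. Irs3, the rodent substrate found mainly in adipocytes, had 0.92 ± 0.29 (SE; adjusted p = 0.278, edgeR) on 18 to 110 counts per library. Cbl had 0.56 ± 0.24 (SE; adjusted p = 0.371, edgeR). Grb2, the most abundant of this list by summed TPM, had -0.16 ± 0.10 (SE; adjusted p = 0.514, edgeR), which was -0.07 without wild type 2. With limma on log2 TPM, Irs3 had 0.47, Cbl 0.29 and Grb2 0.20. Summed adipocyte markers were higher in 5 of 6 knockout libraries than in any wild-type library (1454 to 1941 CPM against 1047 to 1483 CPM), with 8 of 10 above 0 in log2 fold change and 0 of 10 past the threshold. Their part in these values was not tested.

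Negative regulators had 0 of 14 past the threshold, beside 0.055% of all genes, and 0 with an unadjusted p under 0.05, beside 12.4%. Of the 14, 10 lay below 0, as did 6570 of all 12716 genes. Trib3, an inhibitor of AKT, had -0.38 ± 0.19 (SE), Dok1 -0.21 ± 0.11 (SE) and Socs1 -0.73 ± 0.41 (SE), which was -0.48 without wild type 5. Socs2, the most abundant of them by summed TPM but not by counts, had 0.76 ± 0.47 (SE), and 0.23 without knockout 2. In the list of phosphoinositide 3-kinase, PDK1 and AKT genes, Pik3r1, the main regulatory subunit and the most abundant of the list by summed TPM, had 0.33 ± 0.11 (SE; adjusted p = 0.310, edgeR). Pik3r3 had 0.88 ± 0.35 (SE; adjusted p = 0.351, edgeR) and Pik3cd, the catalytic subunit of white blood cells, -1.22 ± 0.44 (SE; adjusted p = 0.330, edgeR), which was -0.81 without wild type 5. Pik3cd was highest in wild type 2 and wild type 5, at 10.8 and 14.1 CPM, against 1.85 to 5.13 CPM in knockout libraries. The 6 B cell markers were also highest there, at 62.1 and 82.9 CPM in sum, against at most 15.6 CPM in any knockout library and 18.4 CPM in the other wild-type ones, with Ms4a1 among those at 0 in some libraries. The 6 T cell markers were highest in the same libraries, at 17.2 and 28.0 CPM in sum, against at most 8.39 CPM in any other library. The part of B cell and T cell RNA in the value of Pik3cd was not tested.

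AKT substrates and glucose transport genes had 0 of 12 past the threshold and 0 with an unadjusted p under 0.05, beside 0.055% and 12.4% of all genes. Slc2a1, the glucose transporter GLUT1 and the most abundant of the list by summed TPM, had -0.21 ± 0.10 (SE; adjusted p = 0.431, edgeR), Gsk3b 0.21 ± 0.10 (SE) and Foxo1 -0.27 ± 0.17 (SE). Gsk3b was 0.12 without wild type 2, and Foxo1 -0.18 without knockout 2. Transcripts known to be raised by FOXO factors or lowered by insulin lay on both sides of 0. Cited2 had 0.39 ± 0.13 (SE; adjusted p = 0.300, edgeR), Pck1 0.46 ± 0.33 (SE), Klf15 -0.43 ± 0.24 (SE) and Txnip, the most abundant by summed TPM, -0.11 ± 0.27 (SE). With single libraries left out, Pck1 ran from 0.30 (wild type 2) to 0.71 (wild type 1) and Txnip from -0.26 (wild type 5) to 0.03 (wild type 1), and Klf15 was -0.25 without wild type 1. None of the 7 tested passed the threshold.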

How the data were processed

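RNA of 11 glands was quantified per transcript. The authors' deposited tables give, per the file headers, an estimated count, a TPM value and listed and effective lengths for 58204 transcripts. Salmon 1.3.0, DESeq2 1.28.1 and the build GRCm38.p6 are named in the submitters' processing notes. Listed lengths matched the coding length (94.3% within 3 bases above it), so that untranslated regions were mostly not counted and short partial transcripts received high TPM from few reads.

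Transcripts were assigned to genes by GENCODE M21 (57452 of 58204), and each gene received the rounded sum of its transcripts' deposited estimated counts. Genes passing filterByExpr were tested with edgeR 4.0.16 (TMM, robust quasi-likelihood F test, R 4.3.3), checked on simulated counts. Alternatives used DESeq2 1.42.0, limma 3.58.1 on log2(TPM + 0.5), other scalings and filters, and each library left out. Ratios and shares of the deposited TPM were compared by exact two-sided permutation over 462 assignments, whose smallest possible p is 0.00433. Groups came from the sample titles; nothing says that samples share a litter or batch, and p-values measure the spread between these samples. No 2 libraries of a genotype held the same reads (chi-square per degree of freedom 21.9 to 96.0). Besides the 10 members, each pathway list gave its 3 genes of smallest p, its gene of highest mean TPM and any gene past the threshold. The members and lists were chosen with earlier results of these data known. The authors' table of normalized values over the whole series was not used here. Values of 1 pathway gene and 1 marker gene are not reported here.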

Additional observations from a re-analysis of the deposited data

Results flagged for a closer look

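A single library stood far from the rest of its genotype in 6 of 58 sets of values looked at. The sets were members, ratios, transcript shares and marker sums, judged by the gap to the nearest library over the range. Chance gives about 1 in 20, but that rate cannot be applied as it stands to skewed marker sums or to sets that depend on each other. Akt1 had 230 CPM in knockout 5, against 119 to 152 CPM in the other knockout libraries. Slc2a4-201 held 21.4% of the Slc2a4 TPM in knockout 2, against 85.9% to 97.9% in the other knockout libraries. Igf1-207 held 21.6% of the Igf1 TPM in wild type 2, against 42.7% to 50.6% in the other wild-type libraries. Knockout 1 stood apart in 3 marker sums: skeletal muscle at 2229 CPM against 2.56 to 173 CPM, B cell at 15.6 CPM against 1.03 to 3.16 CPM, and T cell at 8.39 CPM against 1.36 to 3.77 CPM in the other knockout libraries.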

How the results depend on the processing

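The count of members past the threshold was 0 in all 19 alternatives, the smallest adjusted p being 0.256 (Akt2 with limma on TPM). Of 190 alternative fold changes of the members, 174 kept their direction and 16 reversed. With limma on log2(TPM + 0.5), which moved the median of all genes to 0.17, the values were 0.26 for Grb10, 0.19 for Akt1, 0.063 for Igfbp4, 0.20 for Grb2, 0.0099 for Dok1, 0.0060 for Slc2a1 and 0.14 for Txnip, against edgeR values below 0. With a transcript length offset Grb10 had 0.17 and Igf1 -0.013. Leaving out single libraries gave -0.11 to 0.20 for Igf1, -0.18 to 0.043 for Grb10, -0.0085 to 0.069 for Akt2, -0.10 to 0.25 for Slc2a4, -0.020 to 0.058 for Igfbp7 and -0.26 to 0.033 for Txnip. The log2 ratio of Insr to Igf1r differed by -0.024 to 0.48, and the share of Igf1-207 by -1.49 to 5.76 percentage points. The share of Grb10-201 turned from -11.1 to 16.52 percentage points in estimated counts and to 19.02 over transcripts of at least 400 bases, where Akt2-205 differed by 0.457; the length limit and the ratios over longest transcripts were chosen after seeing the data. The cause of these changes was not tested. Other pathway genes past the threshold numbered 2 in DESeq2 and 0 to 1 without a single library. All genes past it numbered 7, but 146 in DESeq2, 3 in limma and 0 to 28 without a single library. With the replicate block 0 genes passed, Grb10 had 0.038 and Irs1 to Irs2 differed by 0.46 (exact sign-flip test over 5 pairs, adjusted p = 0.469). Same-numbered libraries correlated at -0.22 to 0.19 in their deviations from the group mean, which cannot settle whether the numbers pair them. Low counts limit Igf1r, Grb10 and all shares that rest on short transcripts.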
